A study of Mus musculus with 4 samples.

Results

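The comparison described here is that of *Hand2NC* with wild-type heads of mouse embryos at E12.5, read on 1 array for each genotype. Its members are the autosomal genes whose brighter E12.5 array reached the 75th percentile of that array, a signal of 529 in wild-type and 521 in *Hand2NC*. Of 18193 genes with a named probe set, 7314 were that bright, 269 of these lie on X or Y and 12 have no usable chromosome, which left 7033 genes. A gene's value was taken from its brightest probe set, which is a group of short DNA probes for 1 transcript. The cutoff used the level and not the difference between genotypes. Just inside it, *Polr3f* had signals of 529 in wild-type and 465 in *Hand2NC*, and just outside it *Thbs3* had 529 and 493.

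*Hand2NC* embryos are *Hand2 CAT/+; Wnt1-Cre* mice. In them the ubiquitous CAG promoter drives *Hand2* once Cre has removed a floxed CAT cassette, and the *Wnt1* promoter directs Cre to the dorsal neural tube and the neural crest. Both genotypes were on a mixed C57BL/6J x ICR background. RNA of several embryos was pooled before hybridisation, so no difference has a replicate check and no p-value was computed. The series also holds 1 array for each genotype at E11.5, labelled whole-body, and its values are given beside those of the heads.

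Hand2 is a basic helix-loop-helix transcription factor of the mandibular part of the first branchial arch, where endothelin signalling and the Dlx5 and Dlx6 factors lie upstream of it. Neural crest cells give rise to most of the cartilage and bone of the face, to cranial sensory and autonomic neurons and to glia. A whole head at this stage also holds brain, eye, muscle and blood, so a difference limited to the arches is read together with the RNA of all these tissues, and fewer cells of a type cannot be told apart from less RNA per cell.

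The labelled tissue was checked with marker genes of several tissues. All 3 brain markers, all 3 skeletal muscle markers and all 3 lens markers lay above the array median, as did 3 of 4 erythroid markers. None of 5 heart muscle markers and none of 3 trunk Hox markers reached it, and 1 of 5 liver markers did. The pools differed in sex-linked RNA. The Y-linked gene *Kdm5d* had a signal of 677 in wild-type and 8.7 in *Hand2NC*. *Xist*, which silences the X chromosome in females, had 8988 and 16187. Genotype and the sex of the pooled embryos cannot be told apart on these arrays, and for the same reason genes on X and Y were left out.

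Most bright genes had nearly equal signals in the 2 genotypes. The log2 ratio of *Hand2NC* to wild-type had a median of 0.01 over the 7033 members and quartiles of -0.08 and 0.09. It lay within 0.2 of 0 for 85.1% of members and within 0.5 for 99.0%. The local spread, a robust standard deviation of the log2 ratio over the 500 members nearest in mean signal, ranged from 0.07 for bright members to 0.23 for dim ones. Measurement error and real differences both enter this spread. Over all members, 18.0% lay higher and 15.5% lower by more than their local spread.

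At the 2-fold cutoff, 2 members (0.0284%) rose and 3 (0.0427%) fell in *Hand2NC* heads. At a 1.5-fold cutoff, 19 (0.27%) rose and 19 (0.27%) fell. Of these 38 genes, 18 were above the 75th percentile on both arrays, whereas the other 20 were so on only 1 of them, 9 of the higher genes and 11 of the lower ones. The direction of these 20 is in part set by the brightness cutoff. The same holds for all 356 members that were this bright on only 1 array. When both arrays were required to be that bright, 10 genes were higher and 8 lower by 1.5-fold.

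**Figure D1:**
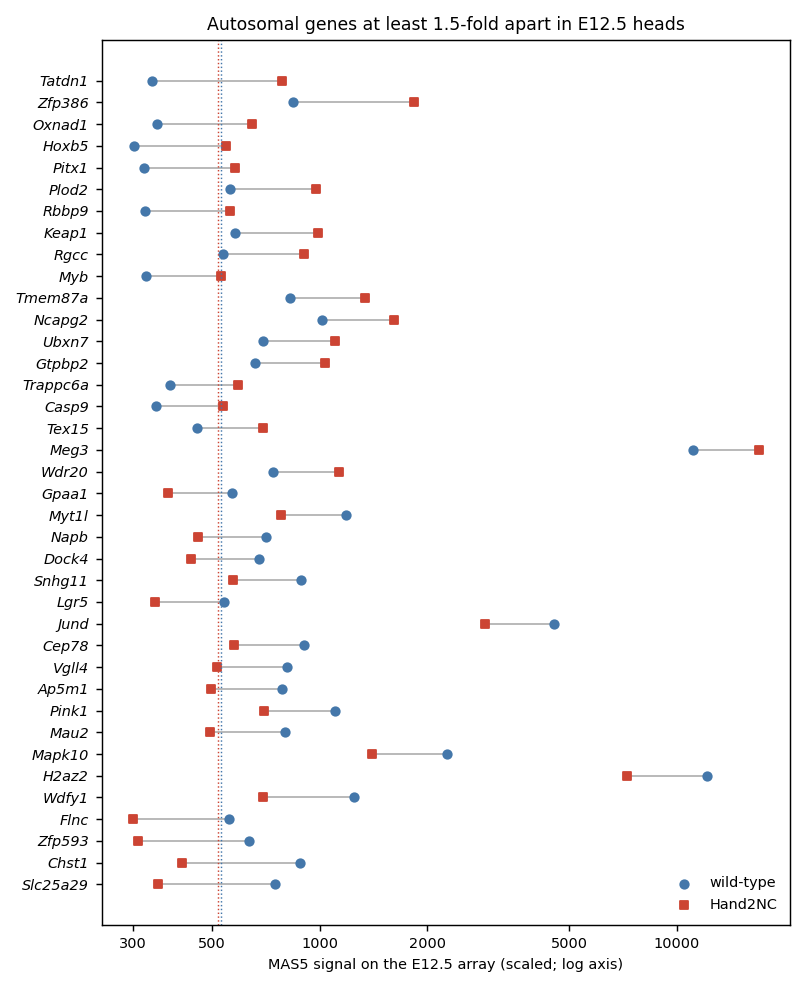
MAS5 signal of the 38 autosomal genes past 1.5-fold on the wild-type (blue circle) and *Hand2NC* (red square) E12.5 arrays, 1 array each and a log axis, ordered by log2 ratio. Dotted lines mark the 75th percentile of each array, at 529 and 521; 20 of the 38 genes have 1 of their signals below it, and *Meg3*, *H2az2* and *Jund* stand to the right.

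Of the genes past 2-fold, *Zfp386* had the most support from its probes. This gene encodes a zinc finger protein with a KRAB domain, the kind of factor that represses transcription through a co-repressor. Its brightest probe set had signals of 842 in wild-type and 1842 in *Hand2NC*, a log2 ratio of 1.13 at a local spread of 0.13. Its second probe set had a log2 ratio of 1.03. The E11.5 ratios of the same probe sets were -0.03 and -0.47, so neither probe set was higher in *Hand2NC* at that stage. Over 147 members with a Zfp, Zkscan or Zscan symbol, with or without a KRAB domain, the median log2 ratio was -0.01, against 0.01 for all members.

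*Tatdn1*, a gene of the TatD family of deoxyribonucleases, had the largest log2 ratio, 1.21, with signals of 339 in wild-type and 783 in *Hand2NC*. The wild-type signal was below the 75th percentile, the probe set may bind more than 1 transcript, and the next probe set had a log2 ratio of 0.17. *Slc25a29*, which encodes a mitochondrial carrier of basic amino acids, had the lowest, with 752 and 352 and a log2 ratio of -1.09. Its second probe set gave -0.92, and the E11.5 ratio was 0.27. *Chst1*, a carbohydrate sulfotransferase gene, had signals of 881 and 413 and a log2 ratio of -1.09 at a local spread of 0.15, with no second probe set to set beside it. *Zfp593*, another zinc finger gene, had 634 and 311 (log2 ratio -1.03), but its second, dimmer probe set had 0.18. *Slc25a29*, *Chst1* and *Zfp593* reached the brightness cutoff only in wild-type, so their direction is in part set by the cutoff.

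The promoters of *Zfp386*, *Slc25a29* and *H2az2* are shown out of the 6 genes named further on whose bright probe sets both passed 1.5-fold in the same direction, as the one that rose, the one that fell furthest and the one that fell at both stages. Hand2 binds E-boxes as a dimer with E proteins, and the letters CANNTG, where N is any base, were searched in the 250 bases before the start of each gene; this motif reads the same way on both strands. The sequences are those of RefSeq (GRCm38.p6), written 5′ to 3′ on the strand of the gene with CANNTG in capitals, at chr12:116047474-116047723 (+ strand) for *Zfp386*, chr12:108835877-108836126 (- strand) for *Slc25a29* and chr11:6444444-6444693 (- strand) for *H2az2*.
Zfp386: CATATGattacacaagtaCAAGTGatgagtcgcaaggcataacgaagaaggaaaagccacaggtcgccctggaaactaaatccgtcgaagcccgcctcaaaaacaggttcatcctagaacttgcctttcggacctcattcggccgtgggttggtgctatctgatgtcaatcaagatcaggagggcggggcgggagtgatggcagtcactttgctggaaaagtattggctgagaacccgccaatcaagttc
Slc25a29: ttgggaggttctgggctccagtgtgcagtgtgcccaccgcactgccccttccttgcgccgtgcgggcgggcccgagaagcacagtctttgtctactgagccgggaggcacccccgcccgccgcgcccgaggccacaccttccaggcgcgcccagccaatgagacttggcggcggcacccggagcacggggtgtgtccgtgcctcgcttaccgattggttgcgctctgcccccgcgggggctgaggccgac
H2az2: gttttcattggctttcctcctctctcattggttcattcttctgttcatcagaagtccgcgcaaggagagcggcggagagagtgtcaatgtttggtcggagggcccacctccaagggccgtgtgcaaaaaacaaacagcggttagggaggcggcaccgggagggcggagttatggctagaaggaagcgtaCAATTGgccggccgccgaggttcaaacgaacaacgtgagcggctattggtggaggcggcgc
*Zfp386* has 2 such matches, *H2az2* has 1 and *Slc25a29* has 0. Over all 27025 promoters of the table, 66.0% hold at least 1 match, and over the 5768 members with an entry 53.5% do. Among genes past 1.5-fold with an entry, 8 of 14 higher ones (57.1%) and 10 of 15 lower ones (66.7%) hold it. These shares describe letters in a window and say nothing of binding.

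By the brightest probe set, *H2az2* was the one member past 1.5-fold in the same direction at both stages. It encodes a variant of histone H2A.Z, which replaces H2A in nucleosomes near gene starts. In the heads its signal was 12140 in wild-type and 7260 in *Hand2NC*, a log2 ratio of -0.74 at a local spread of 0.08, and its second probe set gave -0.73. At E11.5 the signals were 11446 and 6520, with log2 ratios of -0.81 and -0.97 for the same probe sets. All 4 ratios were thus lower, and this gene lay farthest from 0 of the 38 in units of its local spread, at 9.70. As background, the widely used Wnt1-Cre transgene is recorded as an insertion at the *H2az2* locus. Embryos that gained *Hand2* also carried Cre, so the effects of the Cre allele and of Hand2 cannot be told apart here.

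Probe sets of a gene read the same RNA, so their agreement bears on the measurement and not on the embryos. Of the members, 2145 had 1 named probe set and 4888 had more, and for 2214 the second brightest probe set also reached the 75th percentile. Over these 2214 genes the log2 ratios of the 2 probe sets had a correlation of 0.24, as a description over genes that share the same arrays. They had the same sign in 1255 genes (56.7%), and the median difference between them was 0.11 in size. The share with the same sign was 53.8% where the first ratio was within 0.1 of 0, 61.8% from 0.1 to 0.2, 62.9% from 0.2 to 0.3, 53.7% (29 of 54) from 0.3 to 0.4, 60.9% (14 of 23) from there to 1.5-fold and 71.4% (10 of 14) past it. It did not rise steadily with size.

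Among the 38 genes past 1.5-fold, 14 had a bright second probe set. It had the same sign in 10 and passed 1.5-fold the same way in 6, which were *Slc25a29*, *Wdfy1*, *H2az2*, *Pink1*, *Gpaa1* and *Zfp386*. The second probe set was dim in 16 others, 10 of them with the same sign, and 8 genes had no second probe set. Probe sets marked as able to bind several transcripts made up 7 of the 38 (18.4%), against 5.57% of all members.

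**Figure D2:**
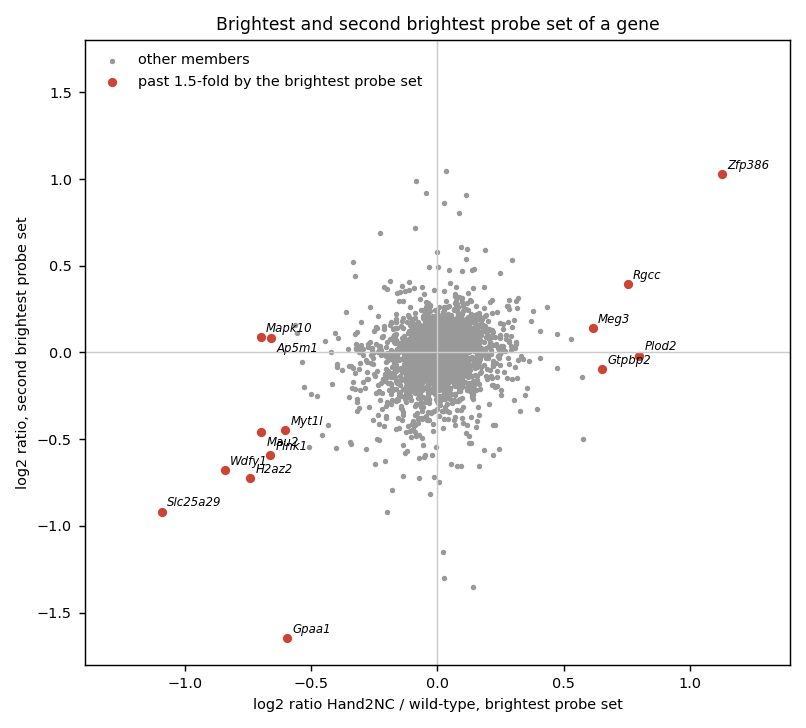
Log2 ratio of *Hand2NC* to wild-type in E12.5 heads for the brightest (x axis) and second brightest (y axis) probe set of genes with both above the 75th percentile, 1 point per gene. Red points are the 14 genes past 1.5-fold on the x axis; *Hand2*, at 0.50 and 4.40, lies beyond the y axis and is not drawn. The grey cloud is nearly round (r = 0.24), while *Zfp386*, *Slc25a29*, *Wdfy1*, *H2az2* and *Pink1* lie near the diagonal.

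Both bright probe sets were past 0.4 in the same direction in 13 genes, 2 higher and 11 lower, and in opposite directions in 1 gene. The higher ones were *Zfp386* and *Hand2*. Of the lower ones, *Slc25a29*, *Mau2*, *Gpaa1*, *H2-K1*, *Krt14* and *N4bp1* reached the brightness cutoff only in wild-type by their brightest probe set. Their direction is thus in part set by the cutoff. The second probe set of *Hand2* reached it only in *Hand2NC*. For *Hand2*, the gene that was overexpressed, the brightest probe set read 592 in wild-type and 839 in *Hand2NC* (log2 ratio 0.50) and the second had a log2 ratio of 4.40. At E11.5 these were 0.04 and 2.23, so by its second probe set *Hand2* was higher at both stages. *Wdfy1*, whose product carries a FYVE domain that binds endosomes, fell from 1251 to 697, with log2 ratios of -0.84 and -0.68. *Pink1*, a kinase gene of mitochondrial quality control, had 1108 and 700, with -0.66 and -0.59. *Mau2*, a gene of the complex that loads cohesin onto DNA, had 799 and 492, with -0.70 and -0.46. For these lower genes the E11.5 ratio of the brightest probe set was smaller in size, at 0.10 for *Wdfy1*, -0.21 for *Pink1* and -0.09 for *Mau2*.

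In 4 of the 11 lower genes the brightest probe set stayed within 1.5-fold. The class I histocompatibility gene *H2-K1* had signals of 631 and 444, with log2 ratios of -0.51 and -0.54 for its probe sets. *Krt14*, a keratin of basal epithelium, had 640 and 466, with -0.46 and -0.48. *Vgll3*, a cofactor of TEAD transcription factors, had 1018 and 754, with -0.43 and -0.42. *N4bp1* had 562 and 425, with -0.40 and -0.55, and its E11.5 ratios were 0.22 and 0.55. The related cofactor gene *Vgll4*, read by 1 probe set, fell from 813 to 515, a log2 ratio of -0.66. It too reached the brightness cutoff only in wild-type.

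*Gpaa1*, a subunit gene of the enzyme that attaches lipid anchors to proteins, had 571 and 377, a log2 ratio of -0.60. Its second probe set gave -1.65 in heads and -1.24 at E11.5, whereas the first gave 0.18 at E11.5.

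Genes of neurons had lower signals in *Hand2NC* heads as a group, although each by little. Of 72 genes listed for the neuronal cytoskeleton, axons and synapses, 55 were members, and their median log2 ratio was -0.13, against 0.01 for all members. Of the 55, 52 lay below 0, against 46.5% of all members. Beyond its local spread, 33 of them (60%) lay lower and 2 lay higher, whereas over all members 15.5% lay lower and 18.0% higher. By the brightest probe set, 0 of the 55 passed the 1.5-fold cutoff. In E11.5 embryos the same genes had a median of 0.04, and 25 of 55 were below 0.

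The brightest genes of the list show the size of the difference. *Stmn1*, which encodes the microtubule regulator stathmin, had signals of 26109 in wild-type and 23888 in *Hand2NC*, a log2 ratio of -0.13 at a local spread of 0.08. *Dpysl2*, whose product guides growing axons, had 20894 and 19573, a log2 ratio of -0.09. *Stmn3*, a relative of stathmin found in neurons, had 10779 and 9958, a log2 ratio of -0.11. Each of these was lower by a little more than its spread.

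Farthest from 0 in this list was *Kif5a*, a kinesin heavy chain of axonal transport, with 1628 and 1090 and a log2 ratio of -0.58. *Gap43*, a protein of growth cones, had 4754 and 4038 (log2 ratio -0.24), and *Elavl2*, an RNA-binding protein of young neurons, had 6584 and 5642 (-0.22). *Scg5*, a chaperone of secretory granules, went the other way with 1754 and 2307, a log2 ratio of 0.40. *Map1b* also lay above 0, at 0.12, and its second bright probe set passed 1.5-fold, at 0.60. A second bright probe set was available for 22 of the genes. It lay below 0 in 19, with a median of -0.15, while 51.3% of all bright second probe sets lay below 0.

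Proneural and early neurogenic genes, a list of transcription factors with some Notch ligands and cell cycle regulators, lay on both sides of 0. Of 21 members, 3 lay higher and 5 lower beyond their spread, against 18.0% and 15.5% of all members. The median of the 21 was -0.01. Among them were *Myt1l*, which represses non-neuronal genes and fell from 1188 to 781 (log2 ratio -0.60, second probe set -0.45), and *Neurod6*, a factor of cortical neurons, with 1297 and 944 (-0.46). *Nhlh2*, another basic helix-loop-helix factor, had 2337 and 1885 (-0.31), whereas *Insm1*, a zinc finger factor of newborn neurons, had 1329 and 1640 (0.30). For *Insm1* a second bright probe set had -0.28.

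Genes of neural progenitors had a median of 0.01 over 36 members. Of the 36, 9 lay higher and 5 lower beyond their spread, against 18.0% and 15.5% of all members. *Hes5*, a target of Notch signalling that keeps progenitors undifferentiated, had 1726 and 2399, a log2 ratio of 0.48, with 0.11 in its second bright probe set and 0.33 at E11.5. *Sox21*, which promotes the exit from the progenitor state, had 976 and 661, a log2 ratio of -0.56. Its second, dimmer probe set also lay below 0, at -0.44.

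Cell cycle genes lay slightly above 0. Their median over 46 members was 0.08, with 17 (37.0%) higher and 2 lower beyond their spread, against 18.0% and 15.5% of all members. Above 0 were 14 of 20 bright second probe sets. At E11.5 the median was -0.05. *Mcm2*, a subunit of the replicative helicase, had 1790 in wild-type and 2123 in *Hand2NC*, a log2 ratio of 0.25. The proliferation marker *Mki67* had 7209 and 8079 (0.16), the mitotic kinase *Cdk1* had 3866 and 4413 (0.19), and *Pcna*, the sliding clamp of DNA polymerase, had 12585 and 13221 (0.07). *Cdkn1a*, which encodes the cell cycle inhibitor p21, had 779 and 534 and a log2 ratio of -0.54, while its second, dimmer probe set had 0.15.

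**Figure D3:**
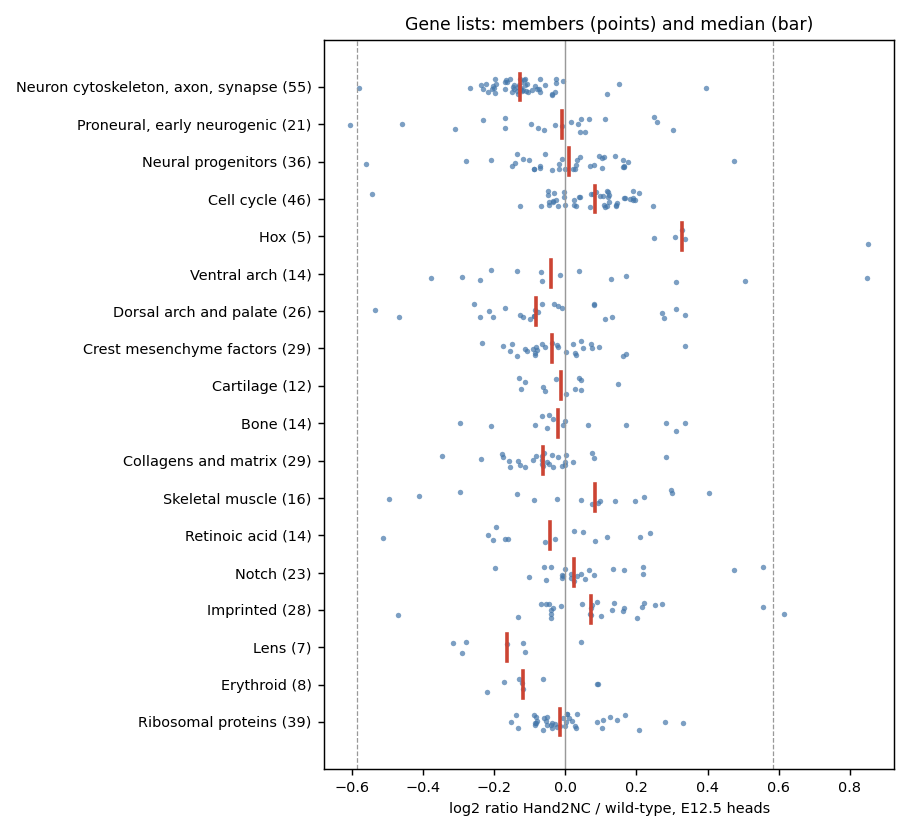
Log2 ratio of *Hand2NC* to wild-type in E12.5 heads for the members of 18 gene lists (points, 1 per gene, spread vertically for visibility), with the list median (red bar) and the number of members in brackets. Dashed lines mark 1.5-fold. The neuronal list is centred at -0.13, the cell cycle list at 0.08 and the 5 Hox genes lie from 0.25 to 0.85.

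Among genes of the ventral, mandibular part of the arch, the list held both higher and lower genes. Of 31 listed, 14 were members, with a median of -0.04. Beyond their spread 4 lay higher and 3 lower, against 18.0% and 15.5% of all members. *Pitx1*, a homeobox factor of the mandible and the hindlimb, rose from 323 to 581, a log2 ratio of 0.85 at a local spread of 0.22. It passed the brightness cutoff through the *Hand2NC* array alone, so its direction is in part set by the cutoff. Its second, dimmer probe set had 0.49 and the E11.5 ratio was 0.28. *Bmp4*, a growth factor of the distal arch, had 899 and 1116 (0.31), and *Dlx5*, which acts upstream of Hand2, had 599 and 674 (0.17).

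*Tbx2*, a T-box repressor, had 584 in wild-type and 450 in *Hand2NC*, a log2 ratio of -0.38, and *Bmp7* had 633 and 517 (-0.29). *Msx1* and *Msx2*, homeobox factors that respond to BMP signals, had -0.24 and -0.21, the second of these within its spread. *Tbx2*, *Bmp7* and *Msx2* reached the brightness cutoff only in wild-type, so their direction is in part set by the cutoff. The G protein genes *Gnaq* and *Gna11*, which carry the endothelin signal, had 2911 and 2778 (-0.07) and 2007 and 2060 (0.04).

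Genes of the dorsal, maxillary part of the arch and of the palate leaned below 0. Of 36 listed, 26 were members, 18 of them below 0, with 5 higher and 9 lower beyond their spread and a median of -0.08. Over all members 46.5% lay below 0, and 18.0% lay higher and 15.5% lower beyond their spread. The list includes *Uncx*, *Irx5*, *Lhx8*, *Pou3f3*, *Pax3*, *Zeb2*, *Shox2*, *Zfhx3* and *Isl1*, which the study named in part from these same samples. All of these but *Isl1* lay below 0, so they are no independent evidence of the lean. *Msx1* and *Bmp4* are in both arch lists. *Uncx*, a homeobox factor, had 577 and 398, a log2 ratio of -0.53 at a spread of 0.23. It reached the brightness cutoff only in wild-type, so its direction is in part set by the cutoff. *Irx5*, an Iroquois factor, had 1255 and 909 (-0.47), and *Lhx8*, a LIM homeobox factor of the maxillary arch and palate, had 1069 and 895 (-0.26). None of the 3 has a second probe set, and their E11.5 ratios were -0.08, 0.05 and -0.23.

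*Nr2f1* and *Nr2f2*, nuclear receptors with a known role in the maxillary region, had 8135 and 7066 (log2 ratio -0.20) and 2930 and 2606 (-0.17). The other 3 bright probe sets of *Nr2f2* had 0.05, 0.23 and -0.06, so its bright probe sets lay on both sides of 0. At E11.5 both genes were above 0, at 0.21 and 0.24. *Twist1*, a basic helix-loop-helix factor of crest mesenchyme that can pair with Hand2, had 1595 and 2014, a log2 ratio of 0.34, and *Shh*, which signals from facial epithelium and the ventral brain, had 1233 and 1488 (0.27). By the brightest probe set, only *Pitx1* of the ventral list, and 0 genes of the dorsal list, passed 1.5-fold. Other bright probe sets passed it for *Mef2c* (-0.71 and -0.87) and *Hand2* (4.40) of the ventral list and *Wnt5a* (-0.59) of the dorsal list. The brightest probe sets of *Mef2c* and *Wnt5a* had -0.13 and -0.02.

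**Figure D4:**
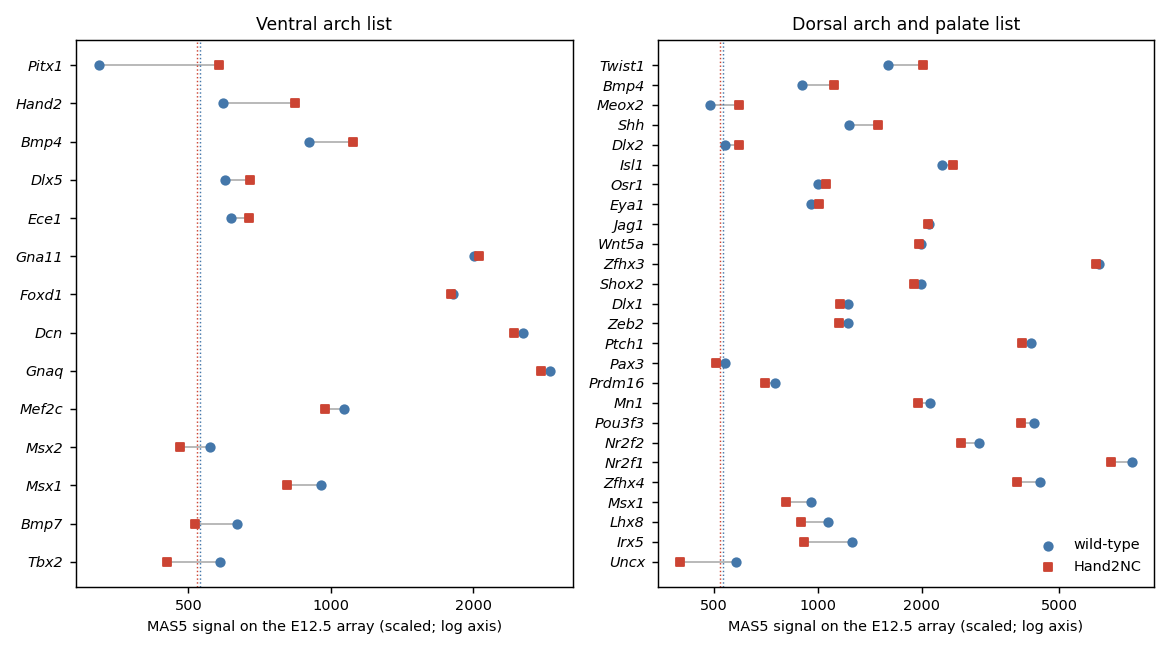
MAS5 signal on the wild-type (blue circle) and *Hand2NC* (red square) E12.5 arrays, on log axes, for the 14 members of the ventral arch list and the 26 of the dorsal arch and palate list, ordered by log2 ratio. Dotted lines mark the 75th percentile of each array; *Pitx1* rises from 323 to 581 and most dorsal genes lie slightly left in *Hand2NC*.

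The study named genes from these heads, and 11 of them with a probe set were bright enough to be members. They were chosen in part on these samples and are no independent evidence of a direction. *Pitx1* passed 1.5-fold, and *Hand2*, *Uncx*, *Irx5* and *Lhx8* had the values given above. *Pou3f3*, at -0.13, and *Isl1*, at 0.11, lay just beyond their spread of 0.09 and 0.10, and a second bright probe set of *Isl1* had -0.04. *Pax3* was at -0.09, but its second bright probe set, with 663 and 496, had -0.42. Both of these probe sets reached the brightness cutoff only in wild-type. *Zeb2* was at -0.09, *Shox2* at -0.07 and *Zfhx3* at -0.03, each within its spread. *Gsc*, a homeobox gene of the ventral arch, was too dim to be a member, with 156 in wild-type and 320 in *Hand2NC*, a log2 ratio of 1.03.

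Genes of skeletal tissues had medians near 0. The 12 cartilage members had a median of -0.01 and lay between -0.13 and 0.15, with 1 higher and 0 lower beyond their spread, and the 14 bone members had a median of -0.02, with 4 higher and 2 lower. The bone list shares *Twist1*, *Bmp4* and *Dlx5* with the arch lists, and its other higher gene was *Cthrc1*, a secreted collagen repeat protein, with 2092 and 2543 (0.28). The growth factor *Bmp2* had 605 and 493 (-0.30) and reached the brightness cutoff only in wild-type. Collagens and other matrix genes had a median of -0.06 over 29 members, 1 higher and 8 lower, and -0.11 at E11.5. For these 3 lists the shares to compare are those of all members, 18.0% higher and 15.5% lower beyond their spread. *Fn1*, which encodes fibronectin, had 7933 and 7129 (log2 ratio -0.15, second probe set -0.43), and *Postn*, periostin, had 5335 and 4723 (-0.18). *Fbln2*, a fibulin gene, had 1435 and 1130 (-0.35), while *Tgfbi*, a secreted matrix protein, had 3403 and 4138 (0.28) and 0.25 in its second probe set.

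Genes of skeletal muscle lay on both sides of 0. The troponin genes *Tnnc1* and *Tnnc2*, for the calcium sensor of the thin filament, had 1256 and 1662 (0.40) and 532 and 655 (0.30). The myosin light chain gene *Myl1* had 1431 and 1760 (0.30). The embryonic myosin heavy chain *Myh3* had 1562 and 1273 (-0.29), the giant protein gene *Ttn* had 585 and 440 (-0.41) and *Pax7*, a factor of muscle progenitors, had 557 and 395 (-0.49). *Ttn* and *Pax7* reached the brightness cutoff only in wild-type, so their direction is in part set by the cutoff. The list held 16 members, and its median was 0.08. Of the 16, 5 lay higher and 3 lower beyond their spread, against 18.0% and 15.5% of all members.

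The 5 Hox genes bright enough to be members were higher in *Hand2NC* heads by more than their local spread, against 18.0% of all members. *Hoxb2* and *Hoxb5* passed the brightness cutoff through the *Hand2NC* array alone, so their direction is in part set by the cutoff. *Hoxd1*, with 312 in wild-type and 142 in *Hand2NC* (log2 ratio -1.13), was too dim to be a member. Hox genes pattern the hindbrain and the posterior arches and are silent in first arch crest. *Hoxb3* had 1307 in wild-type and 1639 in *Hand2NC*, a log2 ratio of 0.33, *Hoxc4* had 593 and 749 (0.34) and *Hoxb2* had 441 and 546 (0.31). *Hoxa5* had 538 and 640 (0.25) and *Hoxb5* rose from 303 to 547 (0.85). Second probe sets were at 0.46 for *Hoxa5*, which was bright, and at -0.06 for *Hoxb3*, which was dim. At E11.5 *Hoxb5* was at -0.23 and *Hoxb3* at 0.40. The trunk genes *Hoxa9*, *Hoxc9* and *Hoxd9* were below the array median on both arrays.

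Signalling pathways held few genes far from 0. *Cyp26b1*, which degrades retinoic acid, had 845 and 593, a log2 ratio of -0.51, and the retinoic acid list had a median of -0.04, with 6 of 14 lower and 3 higher beyond their spread. *Rdh10*, which makes the precursor of retinoic acid, had 855 and 1008 (0.24) and 0.24 in its second bright probe set. *Lgr5*, a receptor for R-spondins in the Wnt pathway, fell from 541 to 347 (-0.64), but its second, dimmer probe set had 1.25. It reached the brightness cutoff only in wild-type, which in part set its direction. Among 31 Wnt genes 5 were higher and 8 lower, and among 34 BMP and TGF-beta genes 3 were higher and 9 lower. The 23 Notch members had a median of 0.03, with 6 higher and 1 lower. Over all members the shares beyond the spread were 18.0% higher and 15.5% lower.

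Lens genes were lower in 5 of 7 members by more than the spread, with a median of -0.16. Over all members 15.5% were lower and 18.0% higher by that measure. The crystallin gene *Cryaa* had 1625 in wild-type and 1329 in *Hand2NC* (-0.29) and *Crybb1* had 854 and 687 (-0.31). *Crygd*, the remaining lens marker, was too dim to be a member and went the other way, with 199 and 301 (0.60). Of 8 erythroid genes 5 were lower and 1 higher, with a median of -0.12, and the embryonic globin *Hbb-y* had 30503 and 28059 (-0.12). The erythroid median was above 0, at 0.090 and 0.091, with lower brightness cutoffs. The summed signal of all 20 erythroid genes with a probe set was 66887 and 63320, and that of 26 lens genes was 13499 and 12525. A probe set that the annotation pairs with more than 1 globin gene, and that is therefore in neither the list nor the sum, read 12991 in wild-type and 29225 in *Hand2NC* (log2 ratio 1.17). That difference is larger than the one in the erythroid sum and opposite in direction, so the erythroid signal has no settled direction here. The part of blood and lens in the other differences was not tested. The 39 ribosomal protein genes had a median of -0.01.

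Imprinted genes, expressed from 1 parental copy, held more higher than lower values. Of 28 members, 12 lay higher and 2 lower beyond their spread, against 18.0% and 15.5% of all members, and the median was 0.07. *Meg3*, a long noncoding RNA of the maternal chromosome, rose from 11110 to 17021, a log2 ratio of 0.62 at a spread of 0.08. Its neighbour *Dlk1*, a growth regulator expressed from the paternal chromosome, had 2199 and 3234, a log2 ratio of 0.56, with 0.51 in its second, dimmer probe set. *Igf2*, a fetal growth factor, had 12582 and 14980 (0.25), *Nnat*, neuronatin, had 6887 and 8027 (0.22) and *Nap1l5* had 1489 and 1074 (-0.47).

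The probe sets of *Meg3* differed widely. The transcript has 11 of them and is spliced in many ways, and of 9 bright ones 6 were above 0, with a range from -0.97 to 1.10 and a median of 0.25. The second brightest had a log2 ratio of 0.14.

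Chromosome 12 held 7 of the 38 genes past 1.5-fold (18.4%) and 266 of the members (3.78%), and 2.63% of its members passed, while chromosomes 3 and 18 held none. Some of them have few members between them by the gene order of GRCm38.p6. *Slc25a29* (-1.09) and *Meg3* (0.62) are parted by *Wars* and *Dlk1*, and *Wdr20*, which rose from 743 to 1131 (0.61), follows with 5 members between it and *Meg3*. *Zfp386* and *Ncapg2*, a condensin gene that rose from 1014 to 1618 (0.67), have 1 member between them, *Esyt2*, at 0.02. By the brightest probe set, the members between these genes ranged from the -0.20 of *Wars* to the 0.56 of *Dlk1*. *Rian*, between *Meg3* and *Wdr20*, had -0.05, but its second bright probe set had 0.92. The pair of *Slc25a29* and *Meg3* differed in direction.

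The remaining genes past 1.5-fold came from many functions. *Jund*, an AP-1 subunit, fell from 4550 to 2906 (-0.65), with a dim second probe set at 0.89. *Mapk10*, the neuronal JNK kinase, fell from 2277 to 1400 (-0.70), but its second bright probe set had 0.09. *Flnc*, a filamin of muscle, fell from 558 to 300 (-0.89), with a second, dimmer probe set at 0.13. It reached the brightness cutoff only in wild-type, which in part set its direction.

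*Keap1*, which marks the stress factor Nrf2 for degradation, rose from 582 to 990 (0.77), against -0.17 in a dim second probe set. *Plod2*, a collagen lysyl hydroxylase, rose from 562 to 977 (0.80), but a second bright probe set had -0.02. *Rgcc*, a regulator of the cell cycle, rose from 536 to 904 (0.75), and its second bright probe set had 0.40. Of these 6 genes, *Rgcc* was the one whose second probe set lay on the same side of 0.

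*Rbbp9*, a serine hydrolase gene, rose from 325 to 562 (log2 ratio 0.79), *Tmem87a*, which encodes a membrane protein, from 828 to 1340 (0.69) and *Tex15*, known from the germ line, from 453 to 696 (0.62), each read by 1 probe set. *Myb*, a transcription factor of blood progenitors, rose from 326 to 530 (0.70), and *Casp9*, an initiator caspase of cell death, from 349 to 537 (0.62). Their dim second probe sets lay on the same side of 0, at 0.33 and 0.83. *Oxnad1* (0.89) and *Trappc6a* (0.62) also had a dim second probe set above 0, at 0.20 and 0.50, while that of *Ubxn7* (0.67) was at -0.11. For *Gtpbp2* (0.65) a bright second probe set had -0.10. *Rbbp9*, *Tex15*, *Myb*, *Casp9*, *Oxnad1* and *Trappc6a* passed the brightness cutoff through the *Hand2NC* array alone. The cutoff thus in part set their direction.

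Among the lower genes, *Cep78*, a gene of the centrosome, fell from 906 to 577 (-0.65) and has 1 probe set. *Snhg11*, a noncoding RNA host gene, fell from 889 to 574 (-0.63), with -0.66 in its dim second probe set. *Dock4*, an activator of the GTPase Rac, and *Napb*, a vesicle fusion gene of neurons, fell to 436 from 675 (-0.63) and to 458 from 706 (-0.62), with second probe sets near 0 at -0.04 and -0.03. *Ap5m1*, a subunit of an adaptor complex for vesicles, fell from 786 to 497 (-0.66), and its second bright probe set had 0.09. *Dock4*, *Napb* and *Ap5m1* reached the brightness cutoff only in wild-type by their brightest probe set. The cutoff thus in part set their direction as well.

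Values of the same probe sets at E11.5 did not follow those of the heads. Of the 38 genes, 18 had the same sign at E11.5, 29 lay within 0.3 of 0 there, 1 (*H2az2*) passed 1.5-fold the same way and 1 (*Myt1l*) passed it the other way. Over all members the correlation between stages was -0.06, as a description over genes. The stages differ in tissue as well as age, and at E11.5 36 members (0.512%) were past 1.5-fold.

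**Figure D5:**
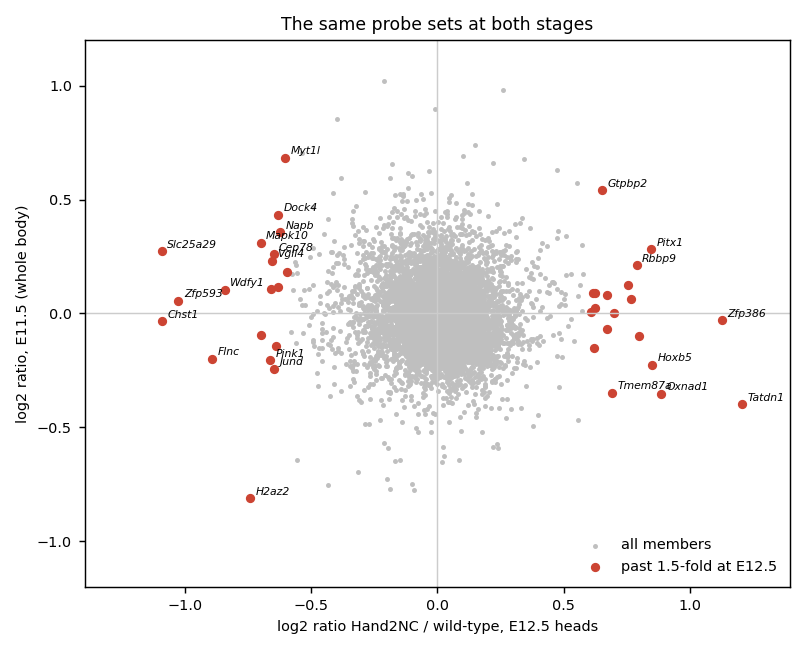
Log2 ratio of *Hand2NC* to wild-type for the same probe sets in E12.5 heads (x axis) and at E11.5 (y axis), 1 point per member. Red points are the 38 genes past 1.5-fold in heads, of which those far from the crowd are named; *H2az2* lies low at both stages and *Myt1l* lies at -0.60 and 0.68. Beyond the axes lie 2 members.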

How the data were processed

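RNA of several embryos was pooled per genotype and stage, and the authors hybridised each pool to 1 Affymetrix mouse genome array with 1 colour. The authors' MAS5 signals (no version is given in the submitters' processing notes) were deposited as linear intensity values, 1 for each of 45101 probe sets, without detection calls. The 64 control probe sets were left out, and each value column matched a sample.

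From there, the arrays were brought to a common 2% trimmed mean of 500, by factors that round to 1.00, and log2 was taken. Gene symbols are those of the platform annotation, checked by gene identifier against RefSeq (GRCm38.p6). Of 45037 probe sets, 34945 have 1 symbol, 932 have several and 9160 have none, and only the first kind gave genes. RefSeq held the identifier of 34741 of them, and 0 symbols differed. A gene was read by its brightest probe set, by mean log2 signal over the 4 arrays.

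The local spread is 1.4826 times the median absolute deviation of the log2 ratio over the nearest 500 members, without the gene itself. The number of arrays limits the precision, and a gene is said to have risen or fallen only past the fold cutoff.

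The members, the gene lists and the naming rule were chosen with earlier results of these data known. The rule takes members past 2-fold, the 15 largest and 15 smallest log2 ratios, genes with both bright probe sets past 1.5-fold, genes that the study names, and in each list those past 1.5-fold and the 3 brightest. Other examples were chosen after their values were seen, and not every brightest gene of a list is named. Alternatives were unscaled values, median centring, quantile normalization, a loess fit (span 0.3), other brightness cutoffs, other choices of probe set, dim values raised to the array median, and X and Y kept. The counting was tested on simulated data. The software was Python 3.11.15 with pandas 2.3.3, numpy 2.4.6, statsmodels 0.14.6, scipy 1.17.1 and, for figures, matplotlib 3.10.9.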

Additional observations from a re-analysis of the deposited data

Results flagged for a closer look

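*Myt1l* passed 1.5-fold in opposite directions at the 2 stages. Its log2 ratio of *Hand2NC* to wild-type was -0.60 in the E12.5 heads and 0.68 at E11.5, and its second brightest probe set had -0.45 and 0.55. The E11.5 arrays are labelled whole-body, so the tissue differs between the stages as well as the age, and the difference between the stages was not tested.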

How the results depend on the processing

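No paired analysis was possible because each genotype has 1 array at E12.5 and the labels carry no replicate numbers. For the same reason no array was left out. Under the 4 other scalings the median of all probe sets lay between -0.01 and 0.01, and 37 or 38 of the 38 genes stayed past 1.5-fold. The brightness cutoff moved the counts most. With the brighter array at or above its median, 140 genes were at least 1.5-fold higher and 166 lower, 23 and 20 at 2-fold. With no cutoff these counts were 1761, 1742, 1131 and 1042. With both arrays above the 75th percentile they were 10, 8, 1 and 0. With the mean signal above it, 11 were 1.5-fold higher, and 1 was higher and 1 lower at 2-fold. Without ambiguous probe sets 1 gene was 2-fold higher, and with X and Y kept 5 were 2-fold lower.

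By the second brightest probe set 6 of the 38 genes passed 1.5-fold again, and the sign turned for *Ap5m1* (0.086), *Flnc* (0.13), *Gtpbp2* (-0.096), *Jund* (0.89), *Keap1* (-0.17), *Lgr5* (1.25), *Mapk10* (0.087), *Plod2* (-0.019), *Ubxn7* (-0.11) and *Zfp593* (0.18). Without ambiguous probe sets *Flnc*, *Mapk10* and *Zfp593* took those same values, as did *Plod2* by its brightest probe set over the E12.5 arrays. The mean over probe sets turned *Ap5m1* (0.15), *Jund* (0.12), *Lgr5* (0.30), *Mapk10* (0.20) and *Napb* (0.32), and it left 12 of the 38 past 1.5-fold. The cause was not tested. The other 27 of the 38 kept their sign. Of 38 list medians, 16 smaller than 0.05 in size changed sign under some alternative and are best read as near 0. Among the larger ones, erythroid turned to 0.090 with the median cutoff and 0.091 with none, and salivary gland and tooth to 0.032 with the mean over probe sets. The neuronal median lay between -0.15 and -0.12 and that of the cell cycle between 0.06 and 0.09 under all 14 alternatives.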

Other observations

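Probe sets that the annotation pairs with no gene or with several were left out of the members. Of 951 such probe sets as bright as the members, 16 passed 1.5-fold in the heads (1.68%), 6 of them higher in *Hand2NC* and 10 lower. Past 2-fold there were 3 in each direction. Their chromosomes are not given here, so X and Y were not left out of these counts.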
